A study of Mus with 17 samples.

Results

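The 9 livers of mice kept on chow were divided by their level of Dbp, the transcript of a clock-controlled transcription factor of the PAR bZIP family. In 3 of the 9, Dbp was below 20 CPM (counts per 1000000 counts of the library), and in the other 6 it was at 20 CPM or more. The livers were chosen by the measured level of Dbp RNA and not by a treatment, so a difference between the groups says which transcripts went with a low Dbp level. Dbp set the groups, and the other core clock genes move with it by the working of the clock. Their levels are therefore given as a description, without a p-value among the chow livers.

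The series holds whole livers of 17 male C57BL6/JBomTac mice, 1 library per mouse, of which 9 were on standard chow with plain water. The other 8 were fed western diet and drank water with fructose (42 g/L), a model of advanced fatty liver disease with inflammation. Both diets lasted 52 weeks, the light cycle was 12 h of light and 12 h of darkness, and every mouse was killed after an overnight fast. Nothing distinguishes the low Dbp from the high Dbp chow livers in the labels: strain, sex, diet, age and fast are the same, and the labels give no hour of killing and no batch. The livers are numbered here in sample order, and the 3 low Dbp livers are chow livers 1, 2 and 3. They are neighbours in that order, and an effect of handling or of the hour of killing shared by neighbours cannot be told apart from the Dbp split.

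The circadian clock of the liver is a feedback loop. ARNTL (BMAL1), paired with CLOCK or NPAS2, drives Per, Cry, Nr1d1, Nr1d2, Bhlhe41, Ciart and Dbp, and the products of Per, Cry and Nr1d genes repress the loop. Dbp, Tef and Hlf encode activators that bind D-box sequences, and Nfil3 encodes a repressor of those sequences. In a mouse liver Dbp and Nr1d1 are abundant while Arntl, Npas2 and Nfil3 are scarce, and at the opposite time of day the reverse holds. Feeding and fasting act on the same genes and on the targets of PPARA, the fasting-activated regulator of fatty acid oxidation.

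Dbp stood at 12.7, 7.97 and 11.8 CPM in chow livers 1, 2 and 3. In the 6 others it ran from 44.9 CPM through a median of 116.8 CPM to 193.2 CPM. The liver just below the threshold was chow liver 1 at 12.7 CPM, and the one just above was chow liver 6 at 44.9 CPM. Dbp lies on chromosome 7 at bases 45705100 to 45710203 of the mouse assembly GRCm38.p6, the assembly also called mm10, and overlaps the gene Sphk2 there. Among the 8 western diet livers Dbp ran from 10.7 to 96.2 CPM, so low levels were not limited to chow. Library totals were 5684427 to 6996285.5 counts in the low Dbp livers and 5231165.5 to 9071908.5 counts in the high Dbp livers. In these libraries 3 counts, the most that a gene read as 0 could hide, came to 0.331 to 0.573 CPM. The summed level of 9 hepatocyte markers was 14783 to 18573 CPM in the low and 14519 to 18110 CPM in the high Dbp livers, as a liver should hold.

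Several genes that ARNTL drives, and the Dbp relative Tef, were low in the low Dbp livers. Per3, a period gene, was at 6.29, 6.99 and 9.94 CPM in chow livers 1 to 3 and at 14.6 to 53.2 CPM (median 29.1 CPM) in the high Dbp livers. Bhlhe41, a basic helix-loop-helix repressor, was at 1.43, 1.80 and 1.93 CPM against 7.64 to 31.1 CPM (median 12.1 CPM), and Ciart, a repressor of the CLOCK complex, at 0.858, 1.28 and 1.06 CPM against 2.87 to 10.6 CPM (median 3.66 CPM). Tef was at 102.7, 80.0 and 143.8 CPM against 169.3 to 358.6 CPM (median 245.6 CPM), and its relative Hlf overlapped, at 110.6 to 123.0 CPM against 106.5 to 172.1 CPM. For Nr1d1, which encodes the nuclear receptor REV-ERB alpha, the low Dbp livers had 86.6, 52.2 and 107.8 CPM and the high ones 129.1 to 256.5 CPM (median 228.9 CPM). Nr1d2 and Cry2 were lower in the same way, at 60.05 to 136.3 against 143.1 to 202.0 CPM and at 39.5 to 47.4 against 61.5 to 107.6 CPM. All of these except Hlf were below every high Dbp liver in each low Dbp liver.

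Arntl, Nfil3 and Cry1 were high instead. Arntl was at 43.7, 40.9 and 32.6 CPM in chow livers 1 to 3 and at 8.97 to 23.99 CPM (median 15.2 CPM) in the high Dbp livers. Nfil3 was at 98.6, 103.0 and 105.2 CPM against 37.3 to 57.1 CPM (median 51.0 CPM). Cry1, a repressor that peaks late in the cycle, was at 28.6, 29.8 and 20.1 CPM against 8.98 to 13.8 CPM. Npas2, the partner that can replace CLOCK, separated chow livers 1 and 2 from all others and left chow liver 3 with the high group: the low Dbp livers had 12.7, 12.9 and 2.55 CPM, and the high ones 0.696 to 3.46 CPM. Of 24 tested clock genes other than Dbp, 3 lay above all high Dbp livers in every low Dbp liver, 7 lay below, and 14 overlapped, among them Per1, Per2, Clock and Rora. Of all tested genes outside the clock list, 3.77% lay above and 3.76% below in that way. Clock itself was at 107.3 to 199.1 CPM against 79.8 to 142.5 CPM.

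**Figure D1:**
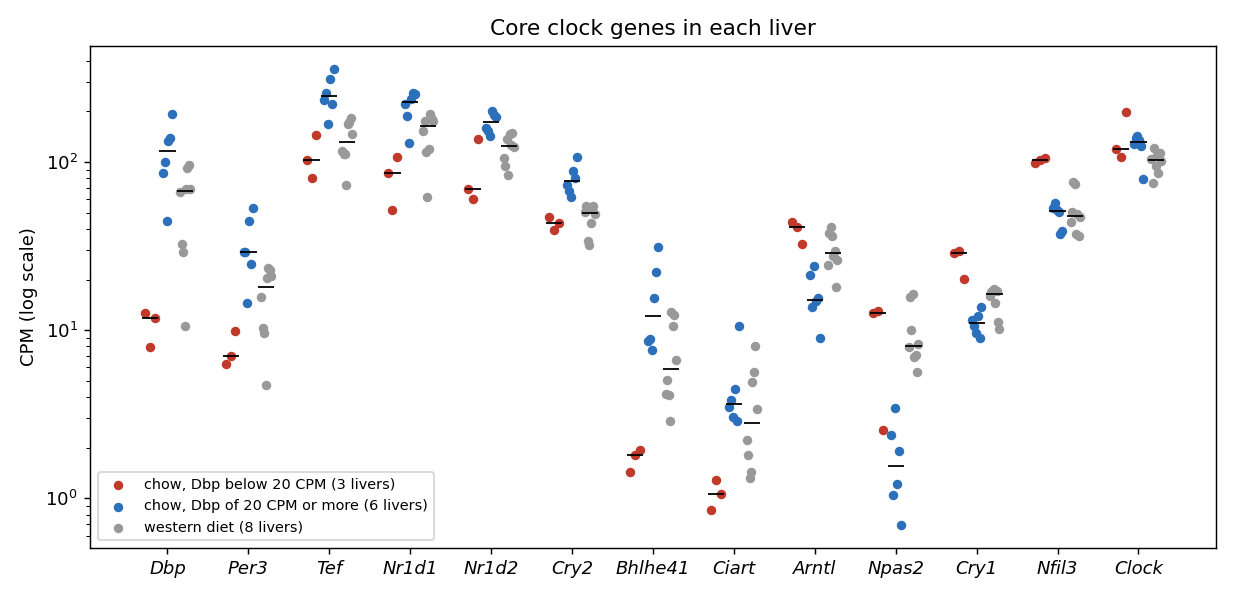
Level of 13 core clock genes in each liver, in CPM on a log axis. Each point is 1 liver, the short lines are group medians, red points are the 3 chow livers with Dbp below 20 CPM, blue points the 6 other chow livers and grey points the 8 western diet livers. Red lies below blue for Dbp, Per3, Tef, Nr1d1, Nr1d2, Cry2, Bhlhe41 and Ciart and above it for Arntl, Cry1 and Nfil3; for Npas2 the third red point, chow liver 3 at 2.55 CPM, lies among the blue ones.

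Outside the clock list, 48 genes were higher and 48 lower in the low Dbp livers, of 13179 tested with edgeR's quasi-likelihood test at a Benjamini-Hochberg adjusted p of 0.05, which is 0.364% in each direction and 0.728% in all. None of the 96 overlapped between the groups, which follows largely from choosing them by a test on the same livers. Of all tested genes, 3.77% lay above and 3.76% below without overlap. These shares and the 0.364% are the background for the counts of each list below. The higher genes ran from 1.31-fold to 9.94-fold (median 1.75-fold) and 16 of them reached 2-fold. The lower genes ran from 1.41-fold to 7.0-fold (median 1.70-fold) and 13 reached 2-fold. The median log2 difference over all tested genes outside the clock list, which the TMM scaling holds near 0, was -0.00041. The calls depended on single livers: 9 of the higher and 3 of the lower genes passed in all 9 fits that left out 1 chow liver, and without chow liver 2 the same 9 and 3 were all that remained of the 96. All 96 kept their direction without chow liver 1, 2 or 3, which the lack of overlap made all but certain beforehand. The 9 were Trp53inp1, Pdk4, Dusp8, Acnat2, Pitx3, Btg1, Inhbc, Ip6k2 and Pnrc1, and the 3 were Gnat1, Klhdc7a and Pim1. The adjusted p-values of the genes described next come from the same fit, and beside each stands the number of those 9 fits in which it passed.

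**Figure D2:**
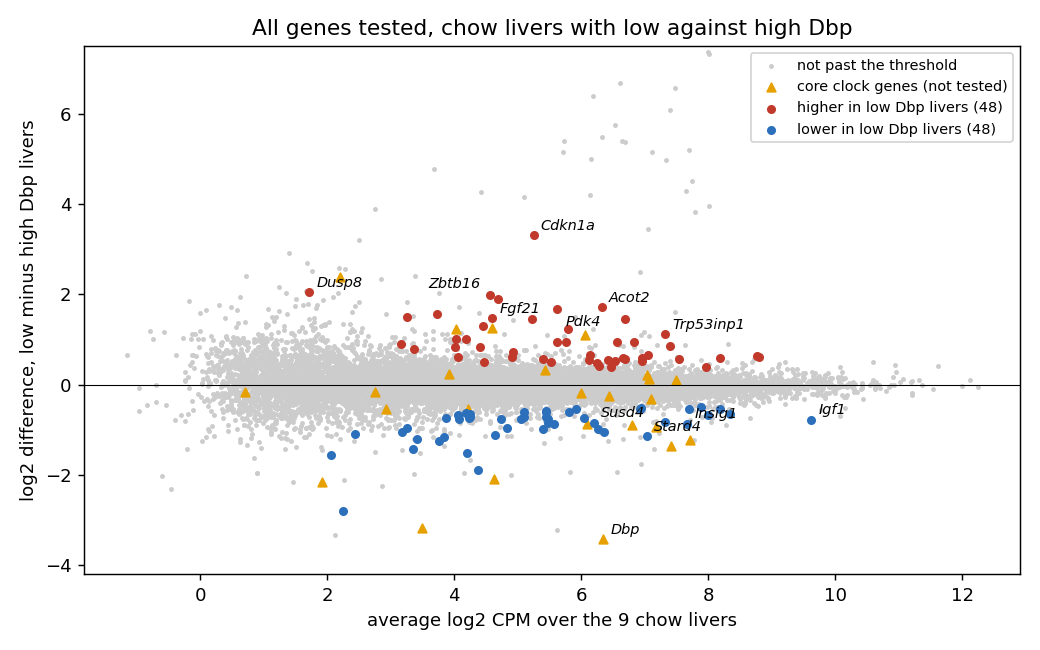
Log2 difference between the low and the high Dbp chow livers (vertical axis) against the average log2 CPM over the 9 chow livers (horizontal axis), for 13204 tested genes. Red and blue points are the 48 higher and 48 lower genes, triangles the core clock genes, and grey points all others. The core clock genes were in the fit, and the legend calls them not tested because no p-value is given for them. The grey points above a log2 difference of 3 are mostly genes of the exocrine pancreas, at 20482 CPM in sum in chow liver 2.

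Targets of PPARA had 5 calls, all higher. Of 40 tested PPARA targets, 5 were higher (0.364% of all tested genes), none was lower and 8 lay above all high Dbp livers (3.77%). The median log2 difference of the list was 0.13 and 32 of 40 were positive. Pdk4, the kinase that shuts off pyruvate dehydrogenase in fasting, was at 72.2, 95.5 and 99.1 CPM in chow livers 1 to 3 and at 15.6 to 35.5 CPM (median 29.6 CPM) in the others. The difference was 1.66 ± 0.20 on the log2 scale (SE, n = 3 and 6, edgeR adjusted p = 0.00656, passed in 9 of 9). Fgf21, a hormone the liver releases in fasting, was at 41.9, 44.4 and 38.5 CPM against 8.11 to 19.98 CPM (median 15.0 CPM), a log2 difference of 1.47 ± 0.20 (edgeR adjusted p = 0.00870, passed in 8 of 9). Acot2, a mitochondrial acyl-CoA thioesterase, was at 142.7, 190.1 and 113.0 CPM against 25.4 to 64.2 CPM (median 45.9 CPM), a log2 difference of 1.72 ± 0.25 (edgeR adjusted p = 0.0202, passed in 6 of 9). As in every called gene of this direction, all 3 low Dbp livers were clear of the highest of the 6 others.

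Plin5, a coat protein of lipid droplets in oxidative tissues, was 0.85 ± 0.16 higher on the log2 scale (199.1 to 260.7 against 98.1 to 185.1 CPM, edgeR adjusted p = 0.0326, passed in 3 of 9). Cd36, a fatty acid uptake receptor, was 0.59 ± 0.12 higher (323.2 to 421.0 against 197.7 to 286.5 CPM, edgeR adjusted p = 0.0498, passed in 0 of 9). Acnat2, an acyl-CoA amino acid N-acyltransferase of peroxisomes that was in no list, was at 180.5, 164.9 and 187.9 CPM against 44.3 to 83.9 CPM (median 67.6 CPM). Its log2 difference was 1.45 ± 0.16 (edgeR adjusted p = 0.00260, passed in 9 of 9). Acot2 has close copies, and its neighbour Acot1 was at 417.4 to 519.4 CPM against 133.8 to 322.0 CPM with an adjusted p of 0.0782 in edgeR; how reads were split between such copies is not given in the sources used here. The number of PPARA targets called was 2 without chow liver 1, 1 without chow liver 2 and 4 without chow liver 3. Genes of gluconeogenesis and FOXO targets (22 tested, median 0.044), of glycolysis and glycogen (23, -0.031) and of lipogenesis (24, 0.032) had no call.

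Of 40 tested p53 targets 3 were higher (0.364% of all tested genes) and none was lower. Cdkn1a, which encodes the cell cycle inhibitor p21, had the largest difference of any called gene, 3.31 ± 0.54 on the log2 scale or 9.94-fold (edgeR adjusted p = 0.0449, passed in 2 of 9). It was at 124.7 and 133.7 CPM in chow livers 1 and 2 but at 27.4 CPM in chow liver 3. In the high Dbp livers it was at 5.95 to 8.89 CPM in 5 and at 21.1 CPM in chow liver 6, so the 2 livers nearest to each other across the threshold were close. Without chow liver 1 its adjusted p was 0.1251 and without chow liver 2 it was 0.146; without chow liver 3 it was 0.0129 (edgeR). The gene lies on chromosome 17 at bases 29090979 to 29100722. Cdkn1a was among the genes known to differ when the split was proposed, so its difference is no independent finding. The same holds for its part in the count of 3 calls.

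Trp53inp1, a p53-induced stress protein that acts in autophagy and cell death, had the smallest adjusted p of the higher genes. It was at 274.4, 260.9 and 215.1 CPM against 99.7 to 134.6 CPM (median 112.4 CPM), a log2 difference of 1.12 ± 0.10 (edgeR adjusted p = 4.25e-04, passed in 9 of 9). Trp53inp2, a related autophagy protein, was 0.64 ± 0.12 higher (557.5 to 589.7 against 278.1 to 451.6 CPM, edgeR adjusted p = 0.0322, passed in 3 of 9). With Cdkn1a they were the only calls of the list, whose median log2 difference was 0.096. Others of that list did not pass, such as Mdm2 (75.8 to 76.8 against 58.4 to 70.7 CPM, adjusted p 0.199 in edgeR) and Bax (36.9 to 41.7 against 28.5 to 37.2 CPM). The list had 1 call without chow liver 1, 1 without chow liver 2 and 2 without chow liver 3. Integrated stress response genes (24 tested, median 0.27), NRF2 targets (29, 0.10) and chaperones of the endoplasmic reticulum (24, 0.022) had no call.

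Glucocorticoid-induced genes gave 3 calls of 20 tested, all higher, with a list median of 0.24. Zbtb16, a zinc finger repressor induced by glucocorticoids, was at 61.6, 39.7 and 36.9 CPM against 6.18 to 22.9 CPM (median 10.9 CPM), a log2 difference of 1.98 ± 0.35 (edgeR adjusted p = 0.0429, passed in 1 of 9). Tsc22d3, known as GILZ, was at 148.7, 151.8 and 116.5 CPM against 59.0 to 110.6 CPM (median 65.4 CPM), a log2 difference of 0.93 ± 0.16 (edgeR adjusted p = 0.0292, passed in 2 of 9). Cebpd, a transcription factor of the acute stress response, was at 27.4, 27.5 and 17.8 CPM against 8.44 to 16.6 CPM, a log2 difference of 1.02 ± 0.18 (edgeR adjusted p = 0.0232, passed in 6 of 9). In each of the 3 genes chow liver 6 or 8 was the highest of the high Dbp group. The list had no call without chow liver 1 or without chow liver 2, and 2 without chow liver 3.

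Immediate early genes, which respond within minutes to growth factors, stretch or handling, had the highest list median apart from marker lists, 0.54 over 29 tested, with 3 higher and none lower. Ctgf, a matricellular protein, was at 66.75, 51.6 and 31.8 CPM against 8.56 to 23.5 CPM (median 12.1 CPM), a log2 difference of 1.90 ± 0.30 (edgeR adjusted p = 0.0279, passed in 3 of 9). Gadd45b, a growth arrest gene, was even across the low Dbp livers at 22.01, 23.8 and 23.6 CPM and at 4.24 to 11.8 CPM (median 7.55 CPM) in the others, a log2 difference of 1.57 ± 0.27 (edgeR adjusted p = 0.0273, passed in 6 of 9). Rhob, a small GTPase, was 0.47 ± 0.10 higher (88.9 to 97.8 against 58.5 to 81.2 CPM, edgeR adjusted p = 0.0497, passed in 1 of 9). Fos itself was at 30.2 and 31.8 CPM in chow livers 1 and 2 and at 4.31 CPM in chow liver 3, against 1.53 to 9.27 CPM, and did not pass (adjusted p 0.118 in edgeR). The list had no call without chow liver 1 or without chow liver 2, and 4 without chow liver 3. Dusp8, a phosphatase of stress-activated kinases outside the list, was at 5.07, 7.29 and 5.98 CPM against 1.13 to 1.88 CPM (median 1.44 CPM), a log2 difference of 2.05 ± 0.24 (edgeR adjusted p = 0.00343, passed in 9 of 9).

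**Figure D3:**
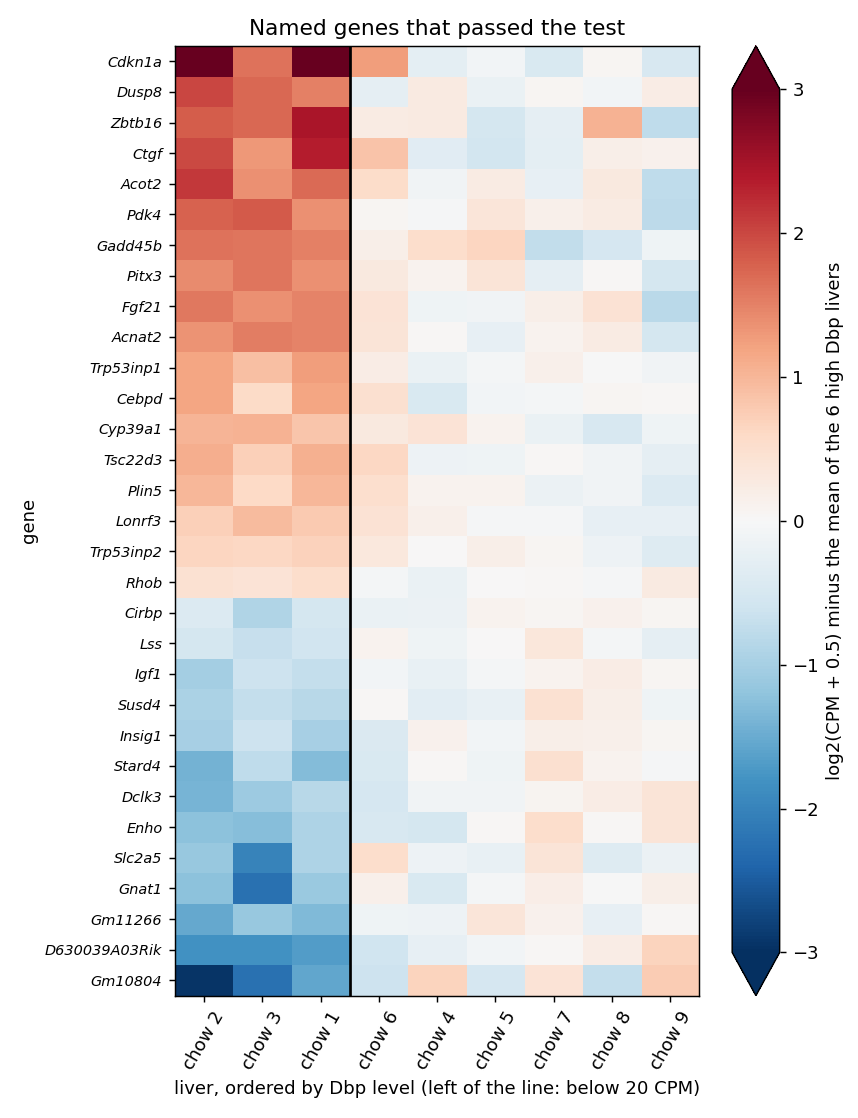
The 31 genes outside the clock list that are described here by the naming rule and passed the test (rows) in the 9 chow livers (columns, ordered by Dbp level with the lowest at the left; the 3 livers left of the line are below 20 CPM). Colour is log2(CPM + 0.5) minus the mean of the 6 high Dbp livers, and the scale ends at 3 in either direction, which Cdkn1a passes in chow livers 1 and 2. In the higher genes chow liver 6 is often the high Dbp liver nearest to the low group.

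Genes of cholesterol synthesis and uptake had calls in the lower direction only. Of 26 tested members 4 were lower (0.364% of all tested genes) and none was higher. In the list 22 of 26 were negative, 8 lay below all high Dbp livers (3.76% of all tested genes), and the median was -0.41. Insig1, the membrane anchor that holds back SREBP processing and is itself an SREBP target, was at 118.5, 117.7 and 153.8 CPM against 174.8 to 267.7 CPM (median 252.8 CPM), a log2 difference of -0.87 ± 0.15 (edgeR adjusted p = 0.0279, passed in 5 of 9). Stard4, a cholesterol carrier, was at 63.9, 58.9 and 93.2 CPM against 113.8 to 218.8 CPM (median 158.0 CPM), a log2 difference of -1.14 ± 0.21 (edgeR adjusted p = 0.0392, passed in 2 of 9). Lss, lanosterol synthase, was -0.61 ± 0.11 (30.0 to 33.5 against 40.5 to 61.5 CPM, edgeR adjusted p = 0.0292, passed in 5 of 9).

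Msmo1, Mvk, Fdft1 and Sc5d, enzymes of the same pathway, lay below all high Dbp livers with adjusted p-values of 0.0689, 0.0872, 0.0770 and 0.116 in edgeR. The list had no call without chow liver 1, 2 or 7 and 4 without chow liver 3.

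Growth hormone-dependent and sex-biased genes gave 2 lower and no higher of 30 tested, 25 of them negative, with a list median of -0.30. Igf1, the hormone that carries much of the action of growth hormone, was at 555.6, 445.5 and 591.5 CPM against 777.5 to 1071 CPM (median 904.8 CPM), a log2 difference of -0.78 ± 0.13 (edgeR adjusted p = 0.0192, passed in 7 of 9). Susd4, a complement regulator, was at 47.6, 44.0 and 51.5 CPM against 67.5 to 117.3 CPM (median 82.3 CPM), a log2 difference of -0.85 ± 0.15 (edgeR adjusted p = 0.0295, passed in 7 of 9). Socs2, a direct target of growth hormone signalling, had 6.33 to 11.7 against 22.5 to 65.3 CPM without passing (adjusted p 0.0689 in edgeR). The male-biased steroid enzyme Hsd3b5 had 6.01 to 8.44 against 30.1 to 155.3 CPM and did not pass either (adjusted p 0.0930 in edgeR). The list had no call without chow liver 1 or 2, and 2 without chow liver 3.

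Single members of other lists passed. Cirbp, the cold-inducible RNA-binding protein, was lower at 43.3, 46.9 and 33.3 CPM against 54.5 to 68.6 CPM, a log2 difference of -0.60 ± 0.12 (edgeR adjusted p = 0.0322, passed in 2 of 9). It was the only call of 22 temperature-regulated genes, whose median was 0.24 and of which 6 lay above and 3 below all high Dbp livers (3.77% and 3.76% of all tested genes). The heat shock gene Hspa1b, for example, was at 12.3 to 26.5 against 4.10 to 9.37 CPM (adjusted p 0.0615 in edgeR). Cyp39a1, an oxysterol hydroxylase of bile acid synthesis, was at 71.8, 82.3 and 82.8 CPM against 28.8 to 53.4 CPM (log2 difference 0.95 ± 0.16, edgeR adjusted p = 0.0279, passed in 3 of 9), the only call of 28 bile acid genes, whose median was -0.13. Among 37 further genes listed as under clock control in liver, Lonrf3 alone passed, at 21.8, 20.6 and 24.6 CPM against 10.3 to 16.9 CPM (log2 difference 0.83 ± 0.15, edgeR adjusted p = 0.0319, passed in 2 of 9). No call fell among genes of drug metabolism (37 tested, median -0.021), the cell cycle (34, -0.061), autophagy and lysosome (29, -0.037) or iron handling (24, -0.0092). Genes of the urea cycle and amino acid breakdown had no call either, with 32 of 42 negative and a median of -0.13, and ribosome biogenesis genes had none with 30 of 36 positive and a median of 0.10. The acute phase list had no call of 33, with a median of -0.023.

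The remaining genes named for the size of their difference belong to no list. Pitx3, a homeobox gene, was at 15.2, 15.6 and 18.03 CPM against 3.71 to 7.44 CPM (log2 difference 1.51 ± 0.20, edgeR adjusted p = 0.00656, passed in 9 of 9). It overlaps the fatty acid elongase gene Elovl3, which was at 507.3 to 521.0 against 259.1 to 458.2 CPM (log2 difference 0.51, adjusted p 0.187 in edgeR), and the part of Elovl3 reads in the Pitx3 value was not tested. Slc2a5, the fructose transporter GLUT5, was lower at 6.075, 5.26 and 2.64 CPM against 9.08 to 17.7 CPM (log2 difference -1.42 ± 0.27, edgeR adjusted p = 0.0319, passed in 4 of 9). Enho, which encodes the peptide adropin, was lower at 6.25 to 8.08 against 10.9 to 23.2 CPM (log2 difference -1.24 ± 0.25, edgeR adjusted p = 0.0449, passed in 2 of 9). Gnat1, a transducin subunit, was lower at 10.4, 9.395 and 4.49 CPM against 16.5 to 26.4 CPM (log2 difference -1.50 ± 0.21, edgeR adjusted p = 0.00870, passed in 9 of 9). Dclk3, a kinase, was at 6.09 to 9.29 against 11.8 to 22.3 CPM (log2 difference -1.15 ± 0.22, edgeR adjusted p = 0.0319, passed in 3 of 9). The uncharacterised D630039A03Rik was lower at 7.04 to 7.79 against 17.1 to 41.4 CPM (edgeR adjusted p = 0.0117, passed in 7 of 9), and Gm11266 at 1.35 to 1.93 against 4.01 to 6.39 CPM (edgeR adjusted p = 0.0173, passed in 7 of 9). Gm10804, the largest decrease at 7.0-fold (edgeR adjusted p = 0.0476, passed in 2 of 9), rests on few counts: it was at 1.57, 0.301 and 0.792 CPM, in chow liver 2 below the level of 3 counts, and it overlaps Cd82.

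The 3 low Dbp livers were not alike. Chow liver 3 had Dbp as low as the others but lay nearest to the high Dbp livers of the low group in 29 of the 48 higher genes and in 11 of the 48 lower ones. Taking the high Dbp mean as the start and the mean of chow livers 1 and 2 as the end, on the log2(CPM + 0.5) scale, chow liver 3 lay at a median of 80.3% of the way in the higher and 109.5% in the lower genes. Chow liver 6, the high Dbp liver nearest the threshold, was placed on another scale, from the mean of the other 5 high Dbp livers to the mean of all 3 low ones, and lay at a median of 30.2% of that way in the higher and 14.0% in the lower genes. These genes were called with chow liver 3 in the low group and chow liver 6 in the high group. Both positions are therefore partly set by that choice. In Npas2, Nr1d2, Cdkn1a and Fos chow liver 3 stood with the high group or between the groups, whereas Pdk4, Gadd45b and Nfil3 were as high in chow liver 3 as in 1 and 2. Fos was picked as an example after its values were seen.

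Chow liver 2 also held RNA of exocrine pancreas. The summed level of 23 pancreas markers was 20482 CPM in chow liver 2, 717.9 CPM in chow liver 1 and 394.1 CPM in chow liver 3, against 176.8 to 286.6 CPM in the high Dbp livers. Of 16 tested pancreas markers 14 lay above all high Dbp livers (3.77% of all tested genes) and none passed the test. Cel, a pancreatic lipase, for example, was at 2287 CPM in chow liver 2, 15.2 CPM in chow liver 1 and 15.0 CPM in chow liver 3, against 2.24 to 5.78 CPM. The part of pancreas RNA in the differences was not tested. In bulk liver RNA, fewer cells of a type and less RNA per cell cannot be told apart. Stellate and fibroblast markers summed to 856.7 to 959.3 CPM in the low against 776.3 to 844.9 CPM in the high Dbp livers, and endothelial markers to 738.7 to 819.4 against 623.8 to 736.9 CPM. Smooth muscle markers were at 40.0 to 189.6 CPM, highest in chow liver 2, against 32.2 to 72.4 CPM, and bile duct markers at 125.3 to 206.7 against 105.0 to 156.1 CPM. By gene, the median log2 difference was 1.11 for smooth muscle (7 of 7 tested positive) and 1.02 for bile duct (8 of 9). It was 0.17 for stellate and fibroblast (12 of 12) and 0.24 for endothelial markers (11 of 11). Medians were negative for hepatocyte, T and NK cell, B and plasma cell (-0.66, 8 of 8 negative), neutrophil and red cell markers. Macrophage (918.7 to 1039 against 652.7 to 1156 CPM), T and NK cell (8.15 to 18.6 against 7.81 to 23.5 CPM), B and plasma cell (43.3 to 95.8 against 21.1 to 228.6 CPM) and neutrophil markers (8.53 to 11.9 against 6.16 to 13.4 CPM) overlapped. So did red cell (398.5 to 447.0 against 328.0 to 611.9 CPM), adipocyte (889.4 to 1111 against 869.9 to 1379 CPM) and mesothelium and bowel markers (153.5 to 191.9 against 133.7 to 184.3 CPM). No marker gene of any of these lists passed the test. The part of these cells in the differences was not tested.

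The western diet livers, which had no share in the split, show whether the same genes follow Dbp elsewhere. There the tested quantity was the slope of each gene on Dbp, given as its log2 change for 2-fold less Dbp. The clock genes followed: 17 of 24 moved in the direction of the chow livers, 12 of them at an unadjusted p under 0.05, and none moved the other way at that level. The unadjusted level was passed by 2.41% of tested genes outside the clock list upward and by 2.42% downward. At any p, 47.2% of the same genes had a positive slope. Per3, with a slope of -0.72 ± 0.065 (SE, n = 8), was the only 1 of 13203 genes other than Dbp past the adjustment (0.00757%, edgeR adjusted p = 0.00212). Without western diet liver 4, which had the least Dbp (10.7 CPM), its slope was -0.72 ± 0.10 with an edgeR adjusted p of 0.151, and 9 of the 24 clock genes were at an unadjusted p under 0.05 in the chow direction. Tef (slope -0.36 ± 0.049) and Npas2 (slope 0.50 ± 0.096) had edgeR adjusted p-values of 0.0668 and 0.514. The adjustment ran over all 13204 genes, with Dbp itself among them. Dbp follows its own level by construction, and its place in the ranking made the adjusted p-values of Per3 and Tef smaller than without it.

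Few of the 96 genes followed Dbp past a test there. Over all tested genes outside the clock list, 47.2% had a positive western slope. Of the 48 higher genes 33 had a western slope of the same sign and 2, Pnrc1 and Pnp, were at an unadjusted p under 0.05; of the 48 lower genes 36 had the same sign, 8 were at that level in the same direction and 3, Gnat1 and Igf1 among them, in the opposite one. Without western diet liver 4, 9 of the higher genes were at that level in the chow direction and 2 in the opposite one, with a median slope of 0.063. Of the lower genes, 10 were then in the chow direction and 1 in the opposite one, with a median slope of -0.081. Whether Gnat1 or Igf1 was that 1 gene is not given here. Without liver 7 the count in the chow direction was 1 of the higher and 5 of the lower genes, and without liver 3 it was 4 of the higher genes. None passed the adjustment in edgeR, where 321 of all tested genes were higher with less Dbp at an unadjusted p under 0.05 and 0 at an adjusted one; limma-voom gave 301 unadjusted and 1 adjusted. The median slope of the higher genes was 0.025 in western diet livers and 0.23 in chow livers, and that of the lower genes -0.072 and -0.23. The chow slopes come from the livers that chose these genes and are inflated by that choice. Stard4 was lower with less Dbp in both diets (western slope -0.21 ± 0.065, edgeR unadjusted p = 0.00919). Igf1 was lower in the low Dbp chow livers and had a western slope of 0.25 ± 0.10 upward (edgeR unadjusted p = 0.0355). Among the other higher genes described above, slopes ran both ways: Pdk4 (0.20 ± 0.13), Dusp8 (0.36 ± 0.22), Pitx3 (0.62 ± 0.49) and Acnat2 (0.12 ± 0.084) had positive ones, and Fgf21 (-0.052 ± 0.15), Acot2 (-0.16 ± 0.11) and Trp53inp1 (-0.070 ± 0.16) negative ones. A test of the difference in slope between the diets, in 1 edgeR model of all 17 livers, passed the adjustment for no gene; 942 genes had an unadjusted p under 0.05, the smallest adjusted p was 0.106, and limma-voom also gave 0, with 869 unadjusted.

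**Figure D4:**
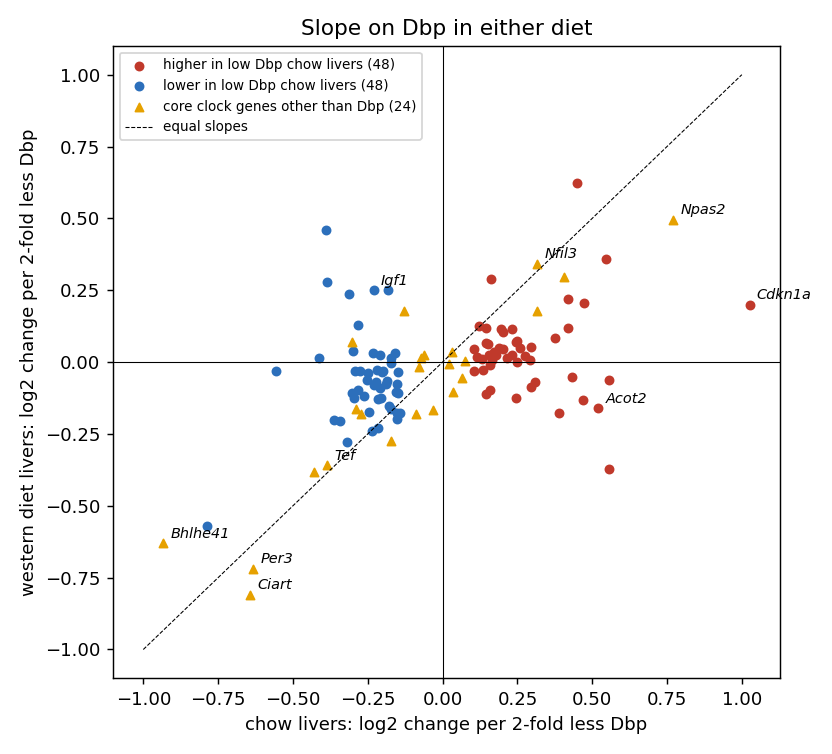
Log2 change for 2-fold less Dbp in the 9 chow livers (horizontal axis) and in the 8 western diet livers (vertical axis). Red and blue points are the 48 higher and 48 lower genes of the chow comparison, triangles the 24 core clock genes other than Dbp, and the dashed line marks equal slopes. Per3, Bhlhe41, Ciart, Tef, Nfil3 and Npas2 lie near or toward the line, and most red and blue points lie near a western slope of 0; their distance from 0 along the horizontal axis follows from how they were chosen.

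In level, the western diet livers lay apart from the high Dbp chow livers for some of these genes. Cdkn1a was at 46.1 to 112.4 CPM (median 69.3 CPM) in all 8, above every high Dbp chow liver, with a slope of 0.20 ± 0.12 (edgeR unadjusted p = 0.137). Insig1 was at 86.5 to 133.7 CPM (median 93.4 CPM), within or below the range of the low Dbp chow livers. Trp53inp1 was at 148.7 to 380.6 CPM (median 226.9 CPM), and Igf1 at 472.3 to 1042 CPM (median 566.7 CPM). Fgf21 was at 15.1 to 31.8 CPM (median 18.6 CPM), below the low Dbp chow livers in each.

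**Figure D5:**
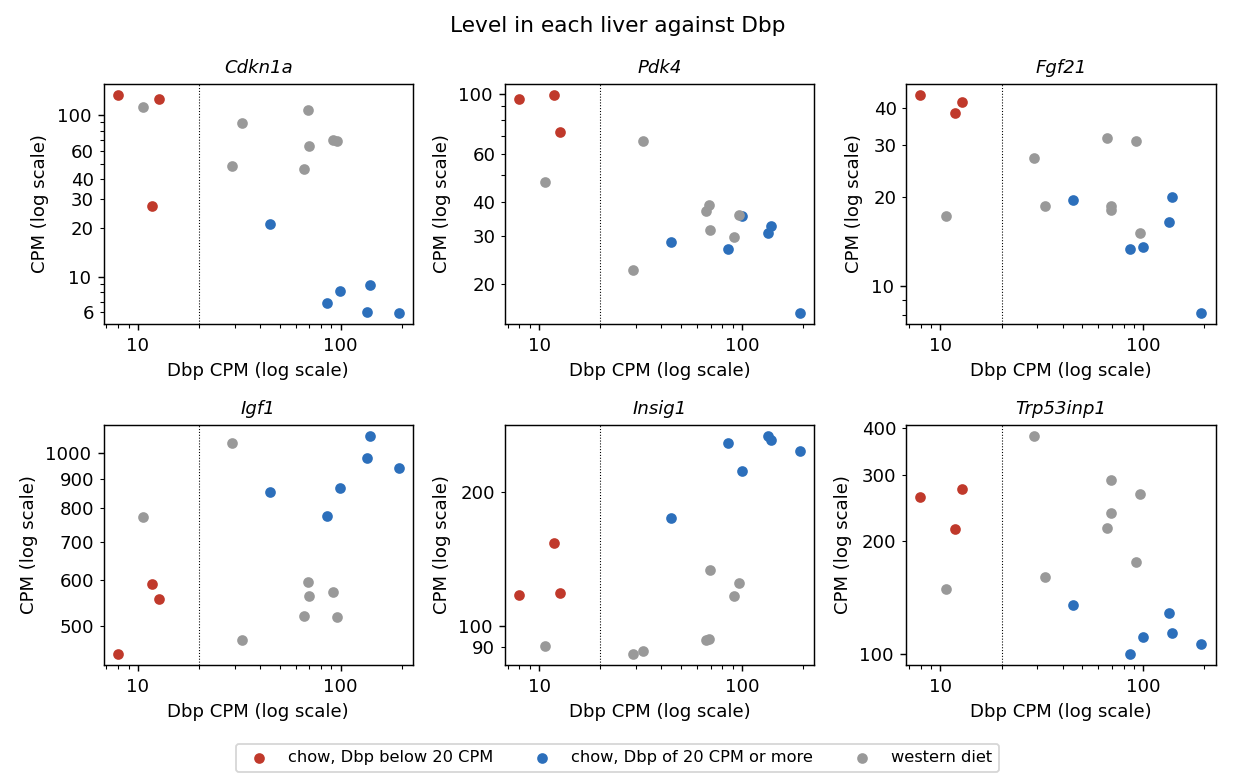
Level of 6 genes (vertical axis, CPM, log scale) against the level of Dbp (horizontal axis, CPM, log scale) in each of 17 livers. Red points are the 3 chow livers below 20 CPM (dotted line), blue points the 6 other chow livers and grey points the 8 western diet livers. Cdkn1a is at 46.1 to 112.4 CPM in the western diet livers at every Dbp level, and Fgf21 and Pdk4 are high in the red points at 38.5 to 44.4 and 72.2 to 99.1 CPM.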

How the data were processed

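The authors deposited 1 table per library of unscaled expected counts by gene symbol, whose smallest step is 0.5. The tools named per the submitters' processing notes are STAR 2.4.1c, HOMER, FastQC and MultiQC, with the assembly mm10. Strand, annotation release, duplicates and multiply matching reads are not described there, so overlapping genes and near-identical copies can share reads. Of 24940 genes 3 had no value in any file. The deposited expected counts were rounded to whole counts for all fits. The source name reads western diet for all samples; groups follow the treatment field.

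CPM are counts over the library total. The filter filterByExpr, with diet as design over 17 libraries, left 13204 genes. Low and high Dbp chow livers were compared with edgeR 4.0.16 (R 4.3.3; TMM, robust dispersions, glmQLFit, glmQLFTest, two-sided), Benjamini-Hochberg adjusted over all tested genes; 25 of these are core clock genes and were left out of the calls. In 8 western diet livers log2 Dbp was the tested term. Log2 differences are low minus high with SE; the biological coefficient of variation was 15.6% in chow and 18.2% in western diet livers. In simulated data with 200 changed genes of 13204, 43.3% of those changed 1.5-fold, 74.6% changed 2-fold and 89.4% changed 4-fold were recovered, with 5 false calls. The simulated livers had no outlying library and no effect shared by neighbours, so these figures do not give the rate of false calls in the real livers.

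The members and the 22 gene lists and 13 marker lists were chosen with earlier results of these data known. Named were the core clock genes, the 10 largest differences per direction among called genes without overlap and averaging 1 or more in log2 CPM, and up to 4 called members per list; for the 13 lists with no call the counts and medians are given instead of a gene. Some genes under this rule are not reported here. Others were chosen after their values were seen. Positions are of RefSeq genes on GRCm38.p6, matched by symbol. No libraries agreed within sampling noise: over 36 pairs of chow libraries chi-square per degree of freedom was 3.95 or more. Chow liver 2 stood farthest from the rest, at 20.4 to 40.4 in its pairs against at most 17.1 in every other pair. Nothing in the labels says how the mice were housed or killed together, so p-values measure the spread between these livers. Alternatives were other scalings, filters and tests (DESeq2 1.42.0, limma 3.58.1), Dbp as a number and each library left out. Promoter motifs were not analysed here.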

Additional observations from a re-analysis of the deposited data

Results flagged for a closer look

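In 58 named genes the 6 high Dbp chow livers were searched for a single liver far from the other 5, by Dixon's gap ratio at its 95% critical value. In 7 genes 1 liver stood apart. The rate of about 1 in 20 behind that critical value holds for independent, normally spread values. Many of these genes move together or were chosen with these same livers, so the 7 cannot be set against that rate. Chow liver 6, the high Dbp liver nearest to the threshold, was the highest in Cdkn1a, at 21.1 CPM, and in Tsc22d3, at 110.6 CPM. Chow liver 9, which had the most Dbp, was the highest in Per1, at 83.7 CPM, and in Ciart, at 10.6 CPM, and the lowest in Clock, at 79.8 CPM. Chow liver 7 was the highest in Rora, at 222.8 CPM, and chow liver 5 the lowest in Timeless, at 6.39 CPM.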

How the results depend on the processing

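The counts of 48 higher and 48 lower genes stayed within 1.5 times under RLE factors, library size alone, limma-voom, a filter by the Dbp split and a filter at 1 CPM. They became 86 higher without robust estimation, 77 higher with all 17 libraries fitted, 83 lower without a low count filter, 214 and 220 with DESeq2, 193 and 210 with log2 Dbp as a number, and 11 and 6 at a threshold of 0.01. Against a 1.5-fold change edgeR's glmTreat called 0 and 0 (161 and 95 at an unadjusted p under 0.05). With 1 chow liver left out the higher genes numbered 13 to 97 and the lower 3 to 95. The lowest counts came without chow livers 1 (13 and 8), 2 (13 and 3) and 7 (14 and 17), and the highest without 3 (83 and 95) and 6 (97 and 90); without 4, 5, 8 and 9 the higher genes numbered 27, 24, 26 and 31. Leaving out chow livers 2 and 6 together, chosen after the data were seen, gave 39 and 16. In the western diet livers limma-voom called 1 higher and 2 lower, and leaving out 1 liver gave 0 to 2 in either direction (2 higher without liver 2, 2 lower without liver 1, 0 lower without liver 4). Of 693 values of the 33 genes that the naming rule takes outside the clock list, 480 kept direction and call, 213 kept direction only and 0 reversed. These 33 genes did not overlap between the groups, so a reversal was unlikely from the start. Clock genes with no clear difference changed sign with 1 chow liver left out: Arntl2 from -1.29 to 0.21, Clock from -0.16 to 0.37, Rora from -0.18 to 0.23 and Fbxl21 from -0.31 to 0.058 on the log2 scale. The causes were not tested. Depth limits genes near 3 counts, such as Gm10804. No paired analysis was possible because replicate numbers only follow the order of the samples.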

Other observations

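Other genes that passed the same test in the low Dbp chow livers were picked here after their values were seen. Cpt1b, the muscle form of the enzyme that admits fatty acids to mitochondria, was at 36.4, 39.8 and 31.3 CPM against 9.27 to 20.7 CPM (log2 difference 1.30 ± 0.18, edgeR adjusted p = 0.00879). Slc10a2, the ileal bile acid transporter, was at 28.4, 25.5 and 26.6 CPM against 11.3 to 19.6 CPM (1.02 ± 0.16, edgeR adjusted p = 0.0160). Inhbb and Inhbc, which encode activin subunits, were both higher, Inhbb by 0.90 ± 0.18 and Inhbc by 0.56 ± 0.081 on the log2 scale (edgeR adjusted p = 0.0410 and 0.00870). Inhbc was at 223.2, 232.6 and 248.2 CPM against 154.6 to 174.4 CPM, a narrow spread in either group. Klhdc7a had the smallest adjusted p of the lower genes, at 51.5, 46.8 and 43.2 CPM against 91.0 to 110.7 CPM (-1.06 ± 0.10, edgeR adjusted p = 6.22e-04). A pair of plasma proteins made by the liver were lower, the coagulation factor F11 (26.3 to 37.1 against 41.0 to 74.4 CPM, edgeR adjusted p = 0.0449) and the complement component C8b (225.6 to 244.7 against 276.9 to 441.8 CPM, edgeR adjusted p = 0.0354).

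The acute phase list had no call in either diet. None of its 33 genes passed in the chow comparison (median log2 difference -0.023, with 2 higher and 2 lower at an unadjusted p under 0.05). In the western diet livers 26 of 33 were higher with less Dbp at an unadjusted p under 0.05, with a median slope of 0.30 and none past the adjustment in edgeR. Without western diet liver 4 no member was higher and 7 were lower at that level, with a median slope of -0.0032, so the relation rests on that liver. Orm2, an acute phase plasma protein, reached 420.4 CPM against a median of 56.6 CPM in the western diet livers.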
